A study of Drosophila melanogaster with 9 samples.

Results

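Olfactory projection neurons (PN) of the Drosophila pupal brain were set against the brain cells that carried neither fluorescent label (double negative, DN) at 45 h after puparium formation (45 h APF). The comparison is the difference in log2(FPKM + 1), PN minus DN, for each gene whose PN, DN and Kenyon cell (KC) values at that stage average 1 FPKM or more. FPKM is fragments per kilobase of transcript, scaled to mapped reads. This kept 8603 of the 16854 genes in the table. Each of the 3 populations is 1 library from a pooled sample, so the differences are sizes with no replicate check, and no p-value or standard deviation can be given. The KC column entered the filter and is given beside the members only as a further level.

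All flies had the same genotype and were of both sexes, pooled. GH146:Gal4 drove UAS:tomato over the balancer CyO, and MB247:LexA drove LexAop:GFP over TM2. Cells with tomato are called PN, cells with GFP are KC, and cells with neither are DN. GH146 is a driver line for most, but not all, projection neurons, and it is known to label some other cells as well. Brains were freed of their optic lobes, dissociated and sorted by flow cytometry. The amount of RNA put into each library was matched to that of PN, with about 1 ng as the aim, so a level is a share of the RNA in a population and fewer cells of a type cannot be told apart from less RNA per cell. The labels call DN neurons, but no label for neurons was sorted for, and DN may hold any unlabelled brain cell. The adult columns of the same table, which are the authors' means with 2 libraries per cell type in the labels, are set beside the pupal values. Stage cannot be told apart from the sequencer or from the length of the reads, which was 50 bases (HiSeq) in the adult and 75 bases (NextSeq) in the pupa.

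Projection neurons receive input from olfactory receptor neurons in the glomeruli of the antennal lobe and send axons to the mushroom body and the lateral horn. Their subtypes are specified by lineage and birth order through transcription factors, and surface molecules guide their dendrites to single glomeruli. At mid-pupal stages the dendrites have already chosen their glomeruli, and synapses begin to form. Kenyon cells, the principal neurons of the mushroom body, are targets of projection neuron axons.

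The deposited columns summed to 979179 FPKM in PN, 886258 in DN and 1055098 in KC. The steps between low values correspond to about 29 M reads in PN and 32 M in DN, at which 98.8% and 99.5% of the low values come to within 0.1 of whole reads. At least 1 FPKM was reached by 8440 genes in PN and 8646 in DN. The median difference over all kept genes was 0.03, with an interquartile range of -0.30 to 0.34, so the bulk of the genes stood at about the same level in both populations.

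In PN, 169 genes were at least 4-fold higher than in DN (1.96% of the genes kept) and 241 were at least 4-fold lower (2.80%). At 2-fold the counts were 629 genes (7.31%) and 805 genes (9.36%). These shares are the reference for every list count at 2-fold given below. Of the genes 4-fold apart, 58.8% were lower in PN, but with a pseudocount of 5 in place of 1 the majority turned, with 85 higher, 69 lower and a share of 44.8%. Without genes listed at 0 in either column, 126 were higher and 159 lower. Most of the zeros at the extremes are short noncoding genes: 21 genes were listed at 0 in PN with at least 20 FPKM in DN, of which 2 are protein coding, and 14 were listed at 0 in DN with at least 20 FPKM in PN, none of them protein coding. The noncoding RNA noe was the highest of these, at 24920 FPKM in PN, 18845 in KC and 0 in DN. Folds against a 0 are not given, since such a zero may be a failed estimate.

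**Figure D1:**
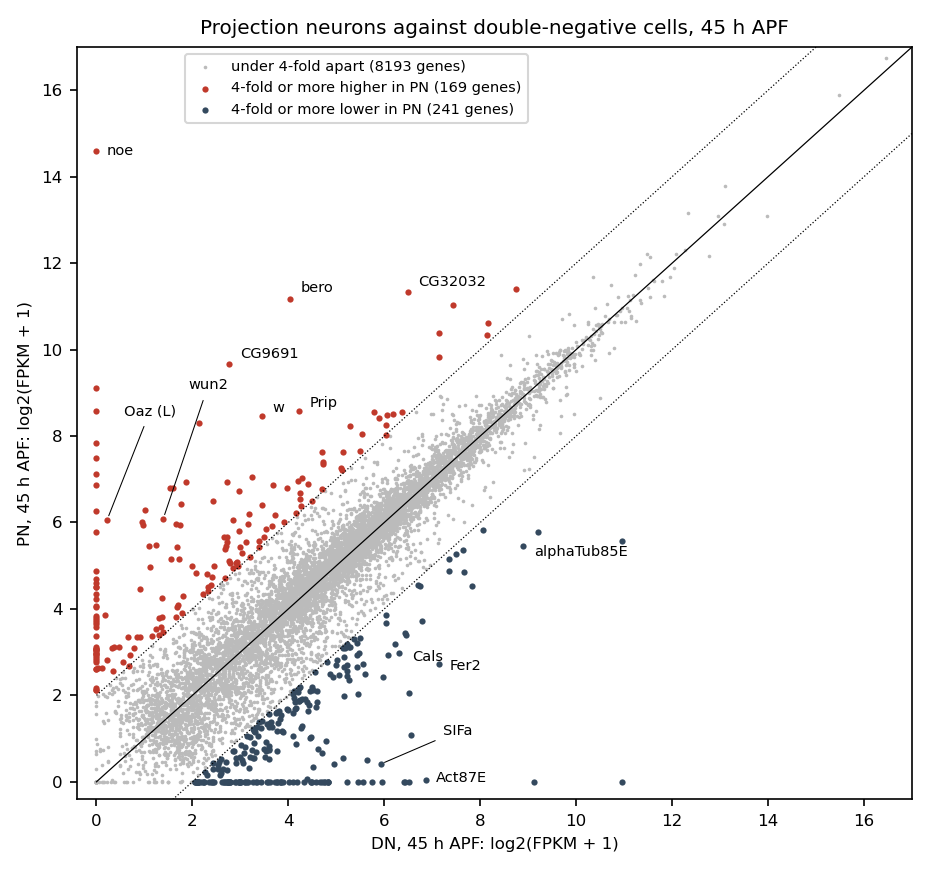
Level of each of the 8603 kept genes in DN (horizontal axis) and in PN (vertical axis) at 45 h APF, both as log2(FPKM + 1). The solid line marks equal levels and the dotted lines 4-fold; 169 genes lie above the upper dotted line and 241 below the lower, and genes listed at 0 lie on the axes.

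The transcription factors known from projection neurons and their lineages are given first. Their list was chosen with earlier results of these data known, so it is no check of the label. Of 11 listed factors 9 passed the filter, 6 were at least 2-fold higher in PN and 2 were lower, and their median difference was 1.68 against 0.03 over all genes. Oaz, a zinc finger gene now named L (chromosome 2R, 14435899 to 14465881, dm6), stood at 66.0 FPKM in PN, 0.168 in DN and 0.128 in KC, a difference of 5.84. The homeobox gene unpg (2R, 9195205 to 9199870) stood at 43.9 FPKM in PN, 1.35 in DN and 0.194 in KC, a difference of 4.26. Both were close to absent from DN and KC, and both passed the filter only through their PN level. Without the filter the median of the list was 1.01.

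Other factors of the list were higher in PN but present in DN too. C15, a homeobox gene, was at 33.0 FPKM in PN against 6.58 in DN, and the homeobox gene otp was at 33.6 and 8.89. The Iroquois homeobox gene mirr was at 28.8 FPKM in PN against 8.31 in DN. The POU factor acj6, which acts in one lineage of projection neurons and in other olfactory neurons, was just past 2-fold, at 7.04 FPKM in PN against 2.99 in DN. Lim1 and vvl were at least 2-fold lower in PN. The LIM homeobox gene Lim1 stood at 8.73 FPKM in PN against 19.2 in DN. The POU factor vvl, which marks the lateral lineage of projection neurons, stood at 0.860 and 4.10, and passed the filter only through its DN level. With a pseudocount of 5, 0 factors of the list were 2-fold lower. The COE factor kn was within 2-fold, with a difference of -0.50, and ems and ct did not pass the filter. The summed level of the kept members was 225 FPKM in PN, 56.1 in DN and 5.95 in KC.

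The homeobox genes as a family, transcription factors that specify regional and neuronal identity, lay in both directions. Of 40 kept genes 11 were at least 2-fold higher in PN and 17 at least 2-fold lower, with a median of -0.51. Of those lower, Six4, so, CG32532, vvl, Ubx, E5, Ptx1 and Awh would not have passed the filter without their DN level. Of those higher, unpg, caup and zfh1 would not have passed without their PN level. With a mean of at least 5 FPKM, 9 were lower, and with a pseudocount of 5 the number was 5. The count higher did not move by 1.5 times in either case. The members furthest apart were unpg, C15, Six4 and hbn. Six4, a homeobox gene of mesoderm development, was at 0.145 FPKM in PN against 5.05 in DN. The paired-type gene hbn was at 73.4 FPKM in PN, 16.8 in DN and 1.5 in KC, and was the highest in PN of the kept homeobox genes. In the adult columns hbn stood at 0.131 FPKM in PN against 11.9 in DN, the opposite order.

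**Figure D2:**
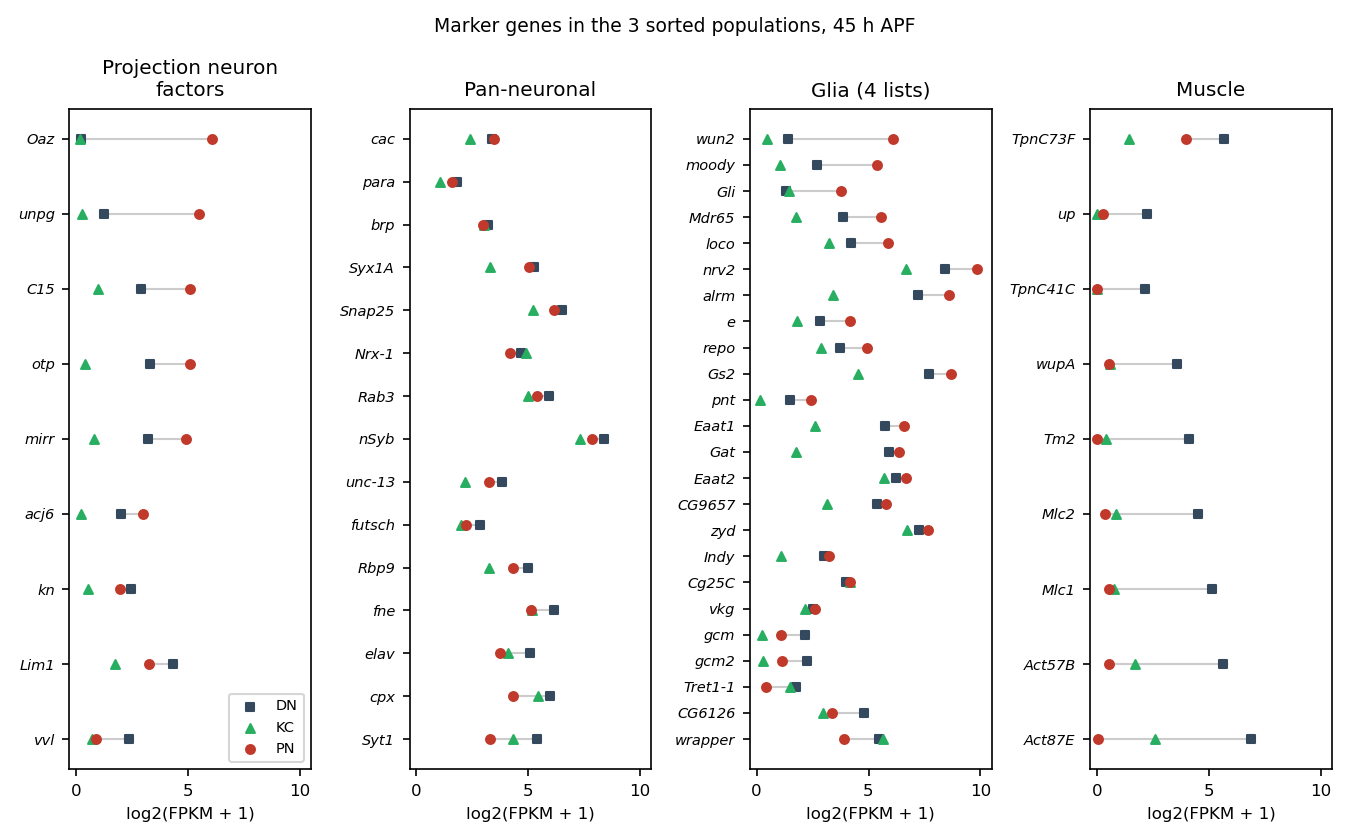
Levels of marker genes at 45 h APF in PN (red circles), DN (dark squares) and KC (green triangles), as log2(FPKM + 1), 1 library each. Projection neuron factors and glial genes lie on both sides of their DN level in PN, with Oaz and wun2 the furthest above it. Most pan-neuronal genes lie slightly below their DN level, and the 9 muscle genes that passed the filter lie below theirs.

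The protein-coding gene furthest above DN was bero (listed as CG9336; 2L, 20858695 to 20861014), a small membrane-anchored protein of the Ly6 family. It stood at 2318 FPKM in PN, 15.4 in DN and 44.5 in KC, a difference of 7.14. CG9338, another Ly6 gene, begins 4200 bases further along (20865215 to 20867709) and stood at 61.6 FPKM in PN, 2.18 in DN and 3.84 in KC. Ly6 proteins are held at the cell surface by a lipid anchor, and members are known to act on ion channels, on septate junctions and in other roles.

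Of the Ly6 genes as a family, 19 of 25 listed were kept, 7 were at least 2-fold higher in PN and 2 lower, with a median of 0.71. Membership was taken from general knowledge and was not checked against the annotation. CG31676 stood at 1295 FPKM in PN, 280 in DN and 70.8 in KC. crok and cold, both needed for septate junctions, were at 80.2 against 25.3 FPKM and at 136 against 53.0. The family members that were lower in PN were twit, at 3.52 FPKM against 13.3, and qvr, a regulator of the Shaker potassium channel, at 7.49 against 18.5.

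A pair of aquaporin genes lie beside each other on 2R and were both among the 20 protein-coding genes furthest above DN. Drip (11411203 to 11429645) stood at 63.3 FPKM in PN, 0.917 in DN and 0.602 in KC. Prip (listed as CG7777; 11436243 to 11442216), 6597 bases away, stood at 378 FPKM in PN, 17.6 in DN and 5.91 in KC. Another neighbouring pair was CG15202 and CG15201 on the X chromosome (11142541 to 11143755 and 11144120 to 11144809), 364 bases apart. CG15201 was at 314 FPKM in PN against 3.40 in DN, and CG15202 at 42.7 and 1.14. These pairs were picked out after their values were seen, and reads of close neighbours or of similar copies could have been shared between them in the authors' estimates.

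The remaining genes of the 20 span enzymes, receptors and genes of no known role. CG32032 had the highest level of the 20, at 2571 FPKM in PN, 89.3 in DN and 72.5 in KC. CG9691 stood at 813 FPKM in PN, 5.81 in DN and 9.73 in KC, a difference of 6.90. ort, a histamine-gated chloride channel, was at 84.4 FPKM in PN, 2.38 in DN and 0.210 in KC. Idgf6 (listed as CG5210), a chitinase-like growth factor, was at 110 FPKM in PN against 2.03 in DN. sosie, which encodes a transmembrane protein, was at 122 FPKM in PN against 2.62 in DN. wun2, a lipid phosphate phosphatase, was at 67.2 FPKM in PN against 1.63 in DN. Of the same 20, Ect3 (77.0 FPKM in PN, 1.02 in DN), CG14340, CG2145, CG2310 and CG15130 had differences between 4.19 and 5.27.

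Of these 20 genes 13 were under 5 FPKM in KC. Over all kept genes 72.8% reached 5 FPKM in KC, and of the 169 genes 4-fold higher in PN 63 (37.3%) did. The 20 were thus much like the 169 in this. In 19 of the 20 the KC level was at least 2-fold under the PN level. The exception was w, the white gene (X, 2790599 to 2796466), an ABC transporter subunit for eye pigment precursors. It stood at 352 FPKM in PN, 9.95 in DN and 306 in KC, so both labelled populations were high and the unlabelled one low. The adult columns had the same order, at 169 FPKM in PN, 7.49 in DN and 195 in KC. A short form of white is a usual marker on fly transgenes. The labels do not say which of the transgenes carry it, and its RNA from the gene and from a transgene cannot be told apart here.

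Glial markers lay on both sides of DN, more of them above it. Over 4 lists of glial genes (general, astrocyte-like, cortex and ensheathing, blood-brain barrier) 24 genes were kept, 10 were at least 2-fold higher in PN, 5 lower and 9 within 2-fold, with a median of 0.66. Their summed level was 2609 FPKM in PN, 1244 in DN and 406 in KC. The glial transcription factor repo stood at 29.9 FPKM in PN, 12.3 in DN and 6.42 in KC, so no column was free of it.

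Of the general list, loco, a regulator of G protein signalling, was at 57.8 FPKM in PN against 17.5 in DN. nrv2, a subunit of the sodium pump, was at 936 FPKM in PN against 346 in DN, and Gs2, glutamine synthetase, at 417 and 205. The early glial determinants gcm and gcm2 were low throughout and lower in PN, at 1.09 against 3.45 FPKM and at 1.17 against 3.82. Of the astrocyte-like list, alrm stood at 388 FPKM in PN, 147 in DN and 9.70 in KC, and all 5 members were above 0 in difference. Of the 8 genes of the blood-brain barrier list 3 were higher in PN, 2 lower and 3 within 2-fold, with a median of 0.18: moody, a receptor of the barrier, was at 41.1 FPKM in PN against 5.42 in DN, and Gli, a septate junction protein, at 12.8 and 1.48. The transporter Mdr65 was at 46.2 FPKM in PN against 13.6 in DN. CG6126 and the trehalose transporter gene Tret1-1 were lower in PN, at 9.17 FPKM against 26.8 and at 0.324 against 2.33. Of the 4 genes of the cortex and ensheathing list none was 2-fold higher, and wrapper, of cortex glia, was lower at 14.1 FPKM against 43.0. wun2 is both a member of the astrocyte-like list and one of the 20 genes furthest above DN. Of these glial genes gcm, gcm2 and Tret1-1 would not have passed the filter without their DN level, nor wun2 without its PN level. The part of glial RNA in the differences of other genes was not tested.

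The innexins, the gap junction proteins of insects, included 3 genes at least 2-fold higher in PN and none lower. Of 8 listed genes 5 passed the filter, with a median of 1.15, and without the filter the median was 0.13. Inx3 stood at 104 FPKM in PN, 26.2 in DN and 6.98 in KC, Inx2 at 54.5 against 22.5 FPKM in DN, and ogre at 119 against 53.2. Of 9 markers of hemocytes, the blood cells, 4 were kept, and 2 of these were at least 2-fold higher in PN: the extracellular matrix gene Ppn, at 13.9 FPKM against 3.13, and the engulfment receptor NimC4, at 23.4 against 8.69. Hml, srp, NimC1, eater and He, which define hemocytes, did not pass the filter.

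Muscle markers were among the genes furthest below DN. Of 16 listed 9 were kept, most of them through their DN level, so that a lower PN value was largely set by the filter. These 9 were at least 2-fold lower in PN, with a median of -4.09, or -4.17 without Tm2 and TpnC41C, which are listed at 0 in PN, and over all 16 without the filter the median was -1.86. Their summed level was 16.5 FPKM in PN, 306 in DN and 11.4 in KC. The actin genes Act87E and Act57B stood at 116 and 48.7 FPKM in DN against 0.0249 and 0.430 in PN, and the myosin light chains Mlc1 and Mlc2 at 34.4 and 22 FPKM against 0.470 and 0.277. The actin Act79B and the LIM protein gene Mlp60A, at 26.6 and 21.0 FPKM in DN against 0.936 and 1.04, are also among the 20 protein-coding genes furthest below DN. Mhc, the muscle myosin heavy chain, did not pass the filter.

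Fat body markers were lower in PN as well, 7 of 8 by at least 2-fold, with a median of -1.66 and a summed level of 20.4 FPKM in PN, 80.2 in DN and 33.1 in KC. Fbp2 was at 3.27 FPKM in PN against 23.1 in DN. The storage protein genes Lsp1alpha, Lsp1beta and Lsp1gamma were at 0.364 to 1.91 FPKM in PN and 3.85 to 9.04 in DN. Lsp1alpha, Lsp1gamma, Yp1 and apolpp (listed as Rfabg) would not have passed the filter without their DN level. The part of muscle and fat body RNA in the differences of other genes was not tested. Of 11 Kenyon cell markers 4 (Hr51, ey, jdp and toy) were at least 2-fold lower in PN and none higher, and their summed level was 166 FPKM in PN, 300 in DN and 2343 in KC. Of these markers sNPF stood at 37.0 FPKM in PN, 52.0 in DN and 12.9 in KC, and Fas2 at 43.2, 59.6 and 35.0. Both were lowest in KC. toy, at 15.7 FPKM in PN, 39.3 in DN and 35.3 in KC, was not higher in KC than in DN. 2 of 9 photoreceptor markers and 2 of 9 neuroblast markers passed the filter, none of them 2-fold apart.

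Pan-neuronal genes lay mostly below their DN level. Of 15 pan-neuronal genes 14 had a negative difference, 4 were at least 2-fold lower and none was 2-fold higher, with a median of -0.55. Syt1, the calcium sensor of synaptic vesicles, stood at 8.85 FPKM in PN, 40.5 in DN and 18.8 in KC. cpx, complexin, was at 18.7 FPKM in PN against 62.5 in DN, and the RNA-binding neuronal genes elav and fne at 12.3 against 32.8 and at 33.9 against 70.3. The channel gene cac was the one member above 0, with a difference of 0.08. The summed level was 514 FPKM in PN, 827 in DN and 399 in KC.

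Genes of vesicle release had the same direction. Of 28 kept genes 10 were at least 2-fold lower in PN and none higher, with a median of -0.46. Of those lower, Sytbeta would not have passed the filter without its DN level. The members furthest apart were the active zone scaffold gene Liprin-alpha, at 0.598 FPKM in PN against 7.40 in DN, synapsin (Syn), at 5.47 and 30.6, Syt1, and Sytalpha, at 1.43 and 8.23. Of 27 voltage-gated and related channel genes 7 were lower and 2 higher, with a median of -0.42. Over all kept genes 9.36% were lower and 7.31% higher, so the count higher was near the share over all genes. The genes that were higher were the inward rectifier potassium channels Irk3 and Irk1. Irk3 stood at 162 FPKM in PN, 25.5 in DN and 21.7 in KC, and Irk1 at 4.38 and 1.22 in PN and DN. Irk1 would not have passed the filter without its PN level. Slob, which binds the Slowpoke channel, was at 8.57 FPKM in PN against 21.3 in DN.

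The receptor counts that follow stand against 7.31% of all kept genes 2-fold higher in PN and 9.36% lower. Of 9 nicotinic acetylcholine receptor subunits 1 was past 2-fold, nAChRalpha4, at 4.12 FPKM in PN against 11.2 in DN. Of 15 GABA and glutamate receptor genes 4 were lower, GABA-B-R1 furthest at 2.80 FPKM against 10.3, and 1 was higher, CG8916, at 8.02 against 2.54. CG8916 would not have passed the filter without its PN level, nor GluRIIA, another of those lower, without its DN level. Of 18 receptors for monoamines and other modulators 6 were lower in PN and 1 higher, with a median of -0.79. DopEcR, a receptor for dopamine and ecdysone, was at 4.59 FPKM in PN, 32.4 in DN and 6.50 in KC. The serotonin receptors 5-HT7 and 5-HT2B were at 1.17 against 5.96 FPKM and at 0.337 against 2.71. Neither serotonin receptor would have passed the filter without its DN level. The member that was higher was the muscarinic receptor mAChR-B, at 26.0 FPKM in PN against 11.8 in DN.

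**Figure D3:**
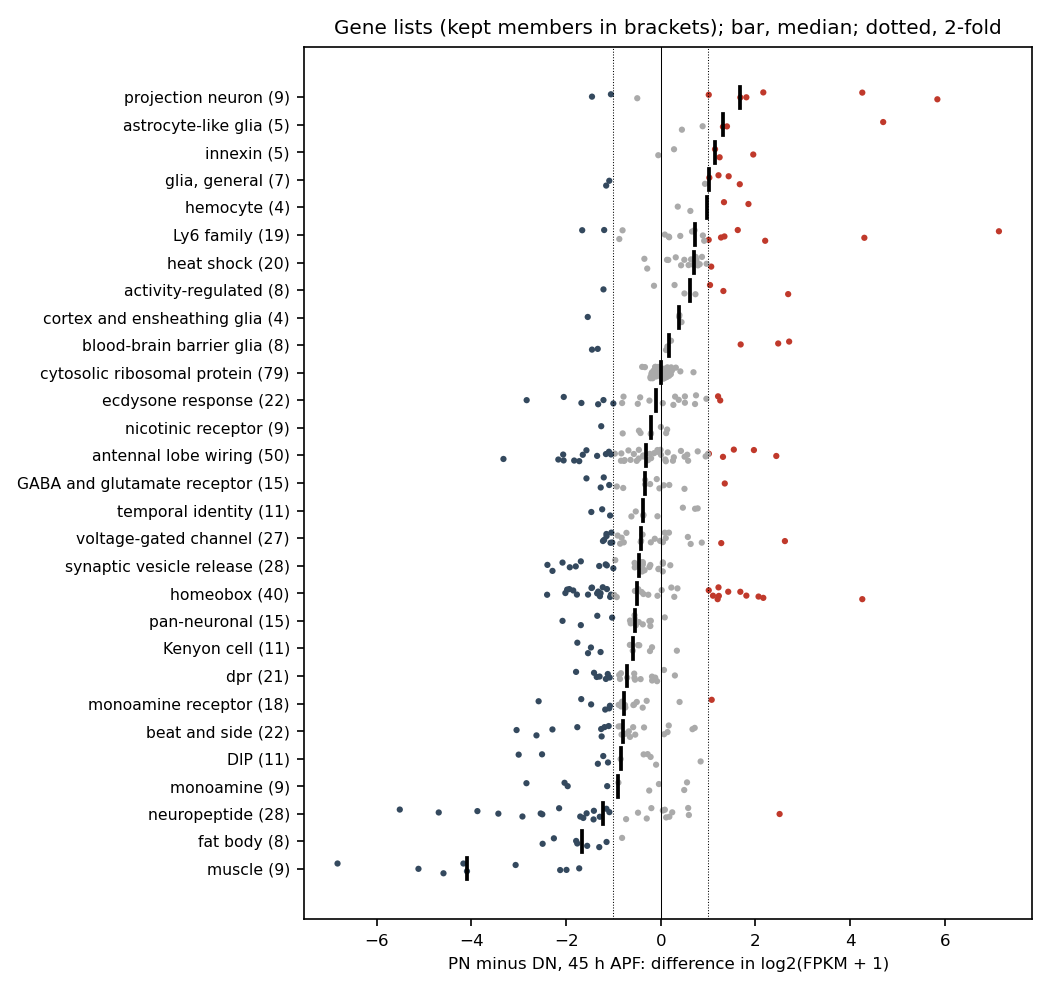
Difference between PN and DN at 45 h APF in log2(FPKM + 1) for the kept members of each list with at least 4 of them (points; red and dark blue, at least 2-fold higher or lower in PN), with the list median as a black bar. Projection neuron factors, astrocyte-like glia and innexins have the highest medians, muscle and fat body markers the lowest, and the 79 ribosomal protein genes lie close to 0.

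Transmitter genes are given by transmitter, and genes of the same transmitter could differ. Most projection neurons use acetylcholine and a ventral group uses GABA. ChAT, which makes acetylcholine, stood at 20.1 FPKM in PN against 17.2 in DN, a difference of 0.21. The vesicular transporter of the same transmitter, VAChT, was at 0.896 FPKM in PN against 3.86 in DN. Gad1, which makes GABA, was at 37.3 FPKM in PN against 49.3 in DN, and none of the 3 GABA genes was 2-fold apart. None of these genes stood 2-fold above DN in PN.

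VGlut, the vesicular glutamate transporter, stood at 38.9 FPKM in PN, 108 in DN and 11.3 in KC. Of 9 monoamine genes 4 were lower, none was higher and 5 were within 2-fold, with a median of -0.90. The vesicular monoamine transporter gene Vmat was at 2.31 FPKM in PN against 22.7 in DN. Tdc2, which makes tyramine, was at 0.178 and 3.82 FPKM, ple, which makes the dopamine precursor, at 0.113 and 3.35, and Ddc at 25.7 and 57.5. Tdc2 and ple would not have passed the filter without their DN level. Trh, which makes the serotonin precursor, was at 9.49 FPKM in PN against 6.14 in DN, and Tbh, which makes octopamine, at 27.4 against 19.1. Fer2, a transcription factor needed for some dopamine neurons and clock cells, was among the 20 genes furthest below DN, at 5.59 FPKM in PN, 140 in DN and 8.93 in KC.

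Neuropeptide genes, whose products are made by small sets of neurons, had the lowest median after muscle and fat body markers among the lists with at least 4 kept genes. Of 28 kept genes 16 were at least 2-fold lower in PN and 1 was higher, with a median of -1.22. Of those lower, SIFa, NPF, CCHa2, Dh44, FMRFa, Nplp2 and Nplp3 would not have passed the filter without their DN level. Their lower PN value was thus largely set by the filter, and without the filter the median of the list was -0.60. SIFa stood at 0.329 FPKM in PN against 59.7 in DN. Its PN level is worth about 3.1 reads. NPF was listed at 0 in PN and stood at 24.8 FPKM in DN. Crz, corazonin, was at 0.684 FPKM in PN against 23.7 in DN, but also at 20.6 in KC. Hug, hugin, was at 1.03 FPKM in PN against 20.9 in DN. The gene that was higher was Capa, at 262 FPKM in PN, 45.2 in DN and 11.3 in KC, a difference of 2.51. In the adult columns Capa was listed at 0 in PN and stood at 220 FPKM in DN, so its order was the opposite there.

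The dpr, DIP, beat and side genes, surface families of the immunoglobulin superfamily that are known to bind in pairs, had no member 2-fold higher in PN. Over these families together, 54 were kept, 20 were at least 2-fold lower in PN and none was higher, with a median of -0.79. 46 of the 54 had a negative difference. DIP-lambda (listed as CG45781) stood at 1.43 FPKM in PN against 18.5 in DN, DIP-delta at 0.664 and 8.47, and DIP-beta at 3.15 and 9.44. DIP-eta was the one DIP with a positive difference, at 33.0 FPKM in PN against 18 in DN. Of the beat genes, beat-Va was at 1.07 FPKM in PN against 16.1 in DN, beat-IIIa at 0.485 and 8.17, and beat-Ic at 3.58 and 21.4. Of the genes counted lower, DIP-alpha, DIP-lambda, DIP-delta, beat-Va and beat-IIIa would not have passed the filter without their DN level. Of the dpr genes, 7 of 21 were lower, dpr17 furthest, at 2.66 FPKM in PN against 11.7 in DN. None of the dpr genes was 4-fold apart.

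A list of guidance, adhesion and other surface genes, drawn up for antennal lobe wiring, went both ways. Whether each member acts in the antennal lobe was not checked. Of 50 kept genes 5 were at least 2-fold higher in PN and 12 lower, with a median of -0.32. Over all kept genes 7.31% were higher and 9.36% lower by that fold. Of the wiring genes that were lower, PlexA, PlexB and Ptp10D would not have passed the filter without their DN level. The adhesion molecule borderless (bdl) stood at 42.3 FPKM in PN, 6.98 in DN and 2.83 in KC. Fas1, a homophilic adhesion molecule, was at 153 FPKM in PN against 38.3 in DN, and Lac, a septate junction protein of the immunoglobulin superfamily, at 364 and 124. The others that were higher, rst and robo2, had differences of 1.31 and 1.02. Among those lower, the calsyntenin gene Cals stood at 6.93 FPKM in PN against 78.4 in DN, the guidance cue gene NetB at 2.86 and 16.3, the receptor gene Drl-2 at 1.63 and 10, and the semaphorin gene Sema-2b at 3.47 and 17.5. Sema-2b and the members higher in PN other than bdl were named after their values were seen.

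Genes of the ecdysone response, the steroid signal of metamorphosis, had no common direction. Of 22 kept genes 2 were higher and 6 lower in PN, with a median of -0.10, or 0.04 without ImpE2, which is listed at 0 in PN. Ldh (listed as ImpL3), lactate dehydrogenase, was at 0.630 FPKM in PN against 10.6 in DN, and br, the broad transcription factor, at 2.21 and 9.25. The nuclear receptor gene Hr39 was at 2.12 FPKM in PN against 6.80 in DN. The nuclear receptor gene Hr4, at 29.3 FPKM against 12.1, and the transporter gene E23, at 4.19 against 1.17, were the ones higher in PN. Ldh, br, ImpE2 and Hr38, all counted lower, would not have passed the filter without their DN level, nor E23 without its PN level. Of 11 temporal identity genes 3 were lower in PN and none higher: run at 2.97 FPKM against 9.98, ab at 3.92 against 10.6, and chinmo, which specifies early-born neurons, at 0.965 against 3.13. Without its DN level chinmo would not have passed the filter.

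Genes of general cell function served as a reference. All 79 ribosomal protein genes were within 2-fold, with a median of -0.00 and a range of -0.39 to 0.69. Of 20 heat shock genes 1 was past 2-fold, Hsp67Bb, but 18 had a positive difference, with a median of 0.71. Of 8 activity-regulated genes 3 were higher in PN and 1 lower, with a median of 0.62. CG17778 stood at 910 FPKM in PN, 140 in DN and 449 in KC, and Arc1 at 55.6 against 21.6 FPKM in DN. kay, the fly Fos, was at 14.6 against 6.6, and Hr38 at 0.652 against 2.82. Hr38 would not have passed the filter without its DN level. Heat shock and activity-regulated genes can respond to dissociation and sorting, as background. What part of these differences comes from handling was not tested.

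The differences were also laid out by chromosome. This was done after the list values had been seen. The small chromosome 4, which is largely heterochromatic, stood apart. Of its 76 kept genes 39 (51.3%) were at least 2-fold lower in PN and none was higher, with a median of -1.05. Of those lower, 4E-T, CR43956, PlexB, CG1674, NfI, PlexA and apolpp would not have passed the filter without their DN level. The other arms had medians of 0.02 to 0.05 and 8.38% to 9.52% of their genes lower by that fold. The median level of the chromosome 4 genes was 8.97 FPKM in PN, 22.5 in DN and 5.12 in KC, so PN and KC were both below DN.

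Of the chromosome 4 genes, 11 (14.5%) were at least 4-fold lower in PN. Cals was the furthest, followed by 4E-T, which binds the cap-binding protein eIF4E, at 1.27 FPKM in PN against 12.6 in DN. The guidance receptor gene Eph stood at 5.54 FPKM in PN against 36.2 in DN, and its ligand gene Ephrin at 2.02 and 16.2. The homeobox gene onecut was at 3.27 FPKM in PN against 16.3 in DN, and CaMKII, the calcium-dependent kinase of synapses, at 21.5 and 81.3. Genes of the same chromosome that were not lower included the ribosomal protein gene RpS3A, with a difference of -0.00, the mitochondrial gene ND-49, with 0.49, and the transcription factor gene Sox102F, with 0.69. These genes were named after their values were seen.

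Exon length moved with this pattern. The median total exon length of the kept chromosome 4 genes was 3706 bases, against 1970 to 2332 on the other arms. When all genes were split into 5 equal bins by exon length, the genes of the other chromosomes had medians of 0.01, 0.08, 0.12, 0.04 and -0.15 from the shortest to the longest bin. The chromosome 4 genes had -0.14 over 10 genes, -0.00 over 9, -0.41 over 6, -0.78 over 17 and -1.49 over 34. So within the longest bin the chromosome 4 genes were at -1.49 where others were at -0.15. What part length has in the chromosome 4 values was not tested further. Without the chromosome 4 genes the medians of the vesicle release, wiring and homeobox lists were -0.40, -0.23 and -0.40.

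**Figure D4:**
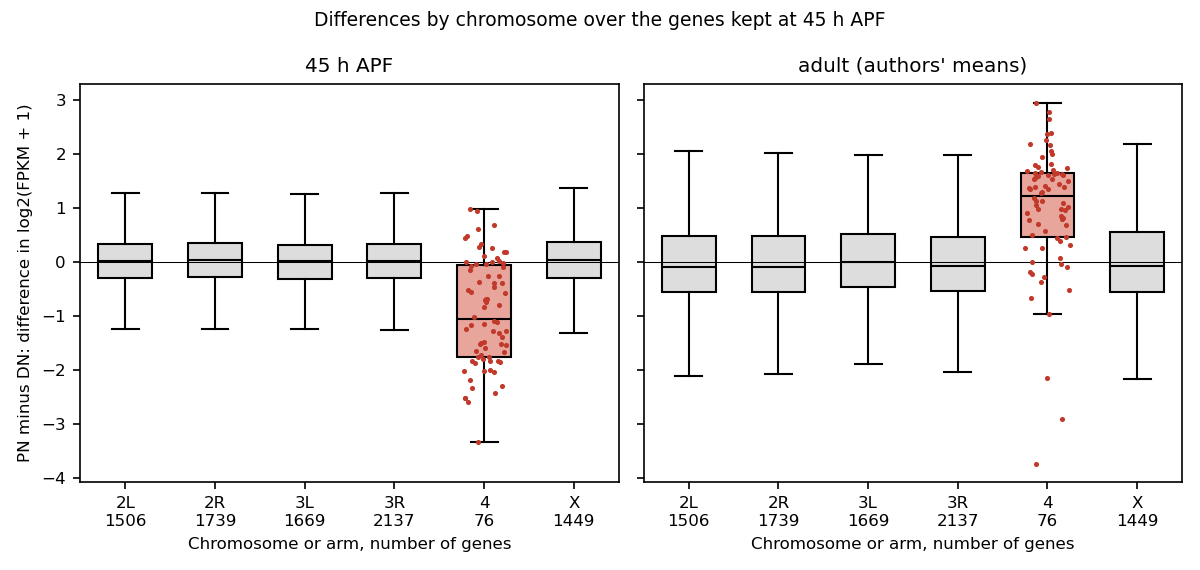
Difference between PN and DN in log2(FPKM + 1) for the genes of each chromosome or arm, at 45 h APF (left) and in the authors' adult means (right); boxes show the median and quartiles, whiskers reach to 1.5 times the interquartile range, points are the 76 chromosome 4 genes, and values of other arms beyond the whiskers are not drawn. Chromosome 4 lies below the others at 45 h APF, with a median of -1.05, and above them in the adult, with 1.23.

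The same genes were then read in the adult columns. Over the 8603 genes kept at 45 h APF, adult PN was at least 2-fold above adult DN in 1155 (13.4%) and below in 769 (8.94%), and the median difference was -0.05. In the adult, 7131 of the genes (82.9%) reached 5 FPKM in some column. Of the 169 genes at least 4-fold higher in PN at 45 h APF, 84 (49.7%) did so, 32 (18.9%) were at least 2-fold higher in adult PN and 32 were lower. Of the 241 genes lower in PN at 45 h APF, 156 (64.7%) reached 5 FPKM in some adult column, 57 (23.7%) were lower and 78 (32.4%) higher in adult PN.

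Genes that were 4-fold apart in the same direction at both stages numbered 18 higher and 38 lower. Over all kept genes, 279 (3.24%) were at least 4-fold higher in adult PN and 197 (2.29%) lower. Both stage counts include genes listed at 0 in a pupal column, where the zero may be a failed estimate. Those higher and above 0 in pupal DN were the projection neuron factors Oaz, unpg and C15, together with w, CG15202, CG31676, retn, Sulf1 and Mmp1. The rest of the 18 were noncoding genes listed at 0 in pupal DN, noe among them. Those lower include NPF and short noncoding genes listed at 0 in pupal PN. The extracellular sulfatase gene Sulf1 stood at 196 FPKM in pupal PN and 25.1 in pupal DN, and the matrix metalloproteinase gene Mmp1 at 27.6 and 3.20, and both were again 4-fold higher in the adult. Oaz stood at 172 FPKM in adult PN and 0.255 in adult DN, a difference of 7.1. SIFa, Crz, Hug and Fer2 were again lower in adult PN, with differences of -5.05, -4.17, -3.59 and -4.31. The genes 4-fold apart at both stages in opposite directions numbered 15 higher in pupal PN and 27 lower in it. These too include short noncoding genes listed at 0 in a pupal column.

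By contrast, bero stood at 3.46 FPKM in adult PN and 3.45 in adult DN, against 2318 and 15.4 at 45 h APF. Of the 20 protein-coding genes furthest above DN, 9 were under 5 FPKM in every adult column, 4 were at least 2-fold higher in adult PN, and 7 lower. Of the 20 furthest below DN, 11 were under 5 FPKM in every adult column, 8 were lower in adult PN, and 3 higher. uncNacbeta (listed as CG11835), a relative of the nascent polypeptide complex beta subunit, stood at 1.11 FPKM in pupal PN and 92.5 in pupal DN, against 6.64 and 0.134 in the adult columns. Of the lower 20, 12 share a locus string with another gene in the table, as do 5 of the upper 20, so the authors' split of reads between overlapping genes is uncertain there.

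**Figure D5:**
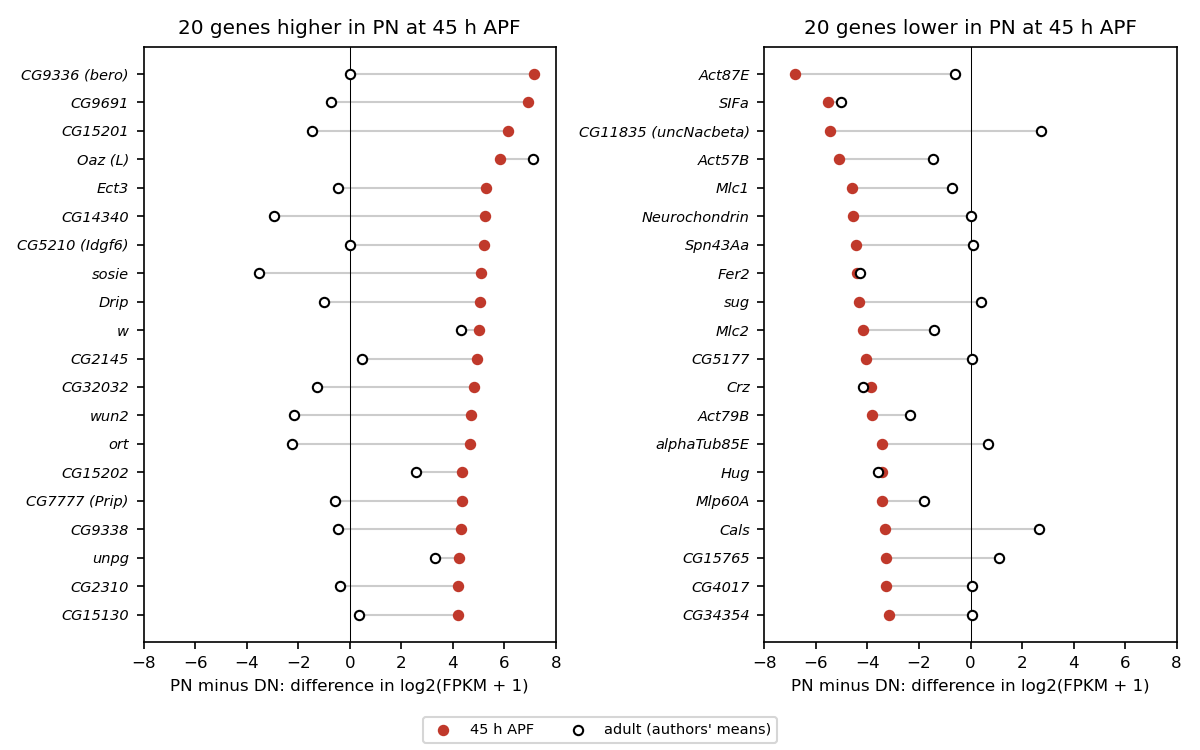
Difference between PN and DN in log2(FPKM + 1) at 45 h APF (red) and in the authors' adult means (open circles) for the 20 protein-coding genes furthest apart in each direction at 45 h APF, chosen by that difference. Oaz, w, CG15202 and unpg of the upper 20 and SIFa, Fer2, Crz, Hug, Act79B, Act57B, Mlc2 and Mlp60A of the lower 20 lie on the same side by at least 2-fold at both stages, and CG14340, sosie, wun2, ort, uncNacbeta and Cals lie at least 4-fold on the opposite side in the adult.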

How the data were processed

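Values are FPKM as deposited by the authors, 1 column for each pupal library and 1 column of means for each adult cell type. TopHat, Cufflinks and the build dm6 are named, per the submitters' processing notes, without versions. Libraries were made from polyA RNA with SmartSeq V2, per the labels' protocols, with 25 M reads planned. Lines whose name had become a date (5) were left out. Names were matched to Ensembl release 115, 12785 of them by symbol, 3967 through synonyms and 102 not at all; coordinates come from that annotation, and 99.0% of matched genes overlap the locus in the table. For 8045 genes the locus string is not unique.

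Differences were taken in log2(FPKM + 1), so those of low genes are understated. A gene low in KC and in either PN or DN could pass the filter only through the other column. Its direction was then largely set by the filter. With 1 library per group no test was made, and a gene or list member is counted past 4-fold or 2-fold. The counting step was checked on simulated data. The 34 lists hold 620 genes, 614 with a line in the table and 508 kept. Members and lists were chosen with earlier results of these data known. Named genes were the 20 protein-coding genes furthest apart in each direction with at least 5 FPKM in the higher column and above 0 in both, and up to 4 members past 2-fold of each list. Depth was inferred by a search from 15 to 40 M reads (narrowed after a wider search took a multiple of the KC depth and left PN and DN as given), with the effective length taken as the transcript length less 200 bases; it leaves no error for single values. Alternatives were the pseudocount, the filter, the scaling, the fold and the genes counted. Python 3.11.15, pandas 2.3.3 and numpy 2.4.6 were used.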

Additional observations from a re-analysis of the deposited data

Results flagged for a closer look

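The results below had opposite signs of PN minus DN at 45 h APF and in the authors' adult means. The lists shown are those of at least 5 kept genes with both medians at least 0.5 from 0, and the genes are those of the 40 named with an adult difference of at least 2; these bounds were set after the values had been seen. Each stage gives 1 value per cell type, so the difference between stages was not tested, and the libraries of the stages were also read differently.

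Some neuronal lists were lower in PN at 45 h APF and higher in the adult, while the neuropeptide list was lower at both, with -1.22 and -3.19, and so was the monoamine list, with -0.90 and -3.49. The median of the pan-neuronal list was -0.55 and 2.08 in the adult, that of the DIP genes -0.85 and 0.62, and that of the dpr, DIP, beat and side genes together -0.79 and 0.51. The chromosome 4 genes had medians of -1.05 and 1.23. Some glial lists and the innexins had the opposite order. The median of the general glial list was 1.03 and -0.95 in the adult, that of the astrocyte-like list 1.31 and -2.39, that of all 4 glial lists together 0.66 and -0.96, and that of the innexins 1.15 and -1.02.

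Of single genes higher in PN at 45 h APF, CG14340 had a difference of 5.26 and then -2.94 in the adult, sosie 5.08 and -3.51, wun2 4.70 and -2.16, and ort 4.66 and -2.26. Of genes lower in PN at 45 h APF, CG11835 (uncNacbeta) had -5.47 and then 2.75, and Cals -3.32 and 2.65.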

How the results depend on the processing

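No replicate could be left out, since each population is 1 library, and no count test could be run on FPKM. No paired analysis was possible because each pupal population has 1 library and the adult columns hold only the authors' means. Counts within 1.5 times, list medians within 0.5 and shares within 10 percentage points of the reported value were taken as unmoved, bounds set after values had been seen. The majority among genes 4-fold apart reversed with a pseudocount of 5, where 44.8% were lower in PN against 58.8% as reported; the cause was not tested. The ecdysone median of -0.10 was 0.17 over genes of at least 5 FPKM. Of the 40 named genes, 39 stayed past 4-fold with a pseudocount of 5 (CG4017 came to -1.90) and all 40 under the other pseudocount, both filters and both scalings. The scalings moved the median of all genes to -0.05 (upper quartile) and 0 (quantile). With 1 library each, the error of single values is unknown.

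With a pseudocount of 0.1, 263 genes were 4-fold higher in PN and 389 lower, the muscle median was -5.87, the fat body median -2.47, and 1 temporal identity gene and 1 chromosome 4 gene were 2-fold higher. With a pseudocount of 5 the counts were 85 and 69. The muscle, fat body and neuropeptide medians were then -2.08, -0.84 and -0.63. The members 2-fold lower in PN numbered 13 of the dpr, DIP, beat and side genes together, 5 homeobox, 3 each of fat body, dpr and DIP, 2 each of Kenyon cell, monoamine and all glial lists, and 1 each of blood-brain barrier, ecdysone, Ly6 and monoamine receptor genes. They numbered 0 of projection neuron, general glial, acetylcholine, temporal identity, nicotinic, GABA and glutamate receptor, voltage-gated channel and activity-regulated genes. Those higher in PN were 3 wiring genes, 1 ecdysone and 1 channel gene, and 0 GABA and glutamate receptor, monoamine receptor and heat shock genes.

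Without the filter the medians were 1.01 for projection neuron factors, -1.86 for muscle, -0.60 for neuropeptides and 0.13 for innexins, and 26 homeobox genes were 2-fold lower. With a mean of at least 5 FPKM, 146 genes were 4-fold lower and the blood-brain barrier median was 0.95. Members 2-fold lower were then 9 homeobox, 3 fat body, 2 each of monoamine, DIP, monoamine receptor and all glial genes, 1 each of projection neuron, blood-brain barrier, ecdysone and temporal identity genes, and 0 general glial, acetylcholine and activity-regulated genes. Those higher were 1 ecdysone and 1 channel gene, and 0 GABA and glutamate receptor and heat shock genes. Upper quartile scaling left 0 monoamine receptor and 0 heat shock genes higher. Quantile normalization gave 0 general glial, 0 activity-regulated and 3 of all glial genes lower and 1 chromosome 4 gene higher. Leaving out genes listed at 0 left 159 lower. At 2-fold the counts were 629 and 805, and at 8-fold 67 and 78. Without chromosome 4, a choice made after seeing the data, 2 Kenyon cell markers were lower. Counting protein-coding genes only, added likewise, moved neither count by 1.5 times.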
